A study of Rattus norvegicus with 2 samples.

Results

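The genes described here encode the oxygen-sensing HIF (hypoxia-inducible factor) pathway: *Hif1a*, *Epas1*, *Hif3a*, *Arnt*, *Vhl*, *Egln1*, *Egln2*, *Egln3* and *Hif1an*. Their members were taken as all probe sets, besides array controls, whose platform annotation gives exactly 1 gene symbol and that symbol is in this list. This gave 10 probe sets for 8 of the 9 genes, out of 31042 non-control probe sets and 14217 genes with such a probe set. *Epas1* and *Egln1* had 2 probe sets each and the other 6 genes had 1. *Hif1an*, which encodes the asparaginyl hydroxylase FIH, had no probe set under this rule, so its RNA level was not analysed here. No probe set with several symbols named any of the 9 genes.

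The samples were 2 Affymetrix Rat Genome 230 2.0 arrays of biotin-labelled total RNA from rat lung, 1 prepared by experimenter 2 and 1 by experimenter 1, numbered as in their titles. The series asks how reproducible such profiles are. Nothing in the labels gives strain, sex, age or number of rats, a treatment or an oxygen level, or says whether both arrays came from the same lung. With 1 array per experimenter no value has a replicate error and no test was possible, so every difference is a description of these arrays.

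HIF is a dimer of an oxygen-labile alpha subunit and the stable beta subunit ARNT. In the presence of oxygen, prolyl hydroxylases of the EGLN family modify the alpha subunit, the VHL ubiquitin ligase then binds it, and it is degraded; FIH blocks its transactivation domain by a further hydroxylation. When oxygen is low, the alpha subunit escapes and pairs with ARNT in the nucleus. The dimer activates genes of glycolysis, vessel growth, iron handling and red cell formation. It does so at sites that contain the core letters ACGTG or GCGTG. Control of the alpha subunits by oxygen acts mainly on the protein, which arrays do not measure. EPAS1, also called HIF-2 alpha, is known for its abundance in the lung, above all in endothelium and alveolar type 2 cells.

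Levels are given as log2 RMA values (robust multi-array average, a scale on which 1 unit is 2-fold), and differences as experimenter 2 minus experimenter 1. A percentile is the share of all non-control probe sets of the same array with a value at or below the one named. The level of a probe set mixes transcript amount with the affinity of its probes and is not corrected for transcript length, so the order of levels between genes describes probe sets and not molar amounts. RMA makes no detection calls, so how far a low value lies from background is not known.

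Lung markers were mostly high and those of other organs mostly low. All 12 lung epithelial markers averaged no less than 6.31, the median level over all probe sets, with *Sftpc*, a surfactant protein, at 14.36 for experimenter 2 and 14.39 for experimenter 1. The 11 endothelial, 10 mesenchymal and 7 leukocyte markers measured did so too. By the brightest probe set, 9558 of all 14217 genes also did. Of 8 markers of other organs, 1, the myelin gene *Mbp*, reached that level, at 8.51 for experimenter 2 and 9.11 for experimenter 1. Across all probe sets, differences between arrays centred on -0.052 (median), with an SD of 0.28. The gap between the 3' and 5' control probe sets of beta-actin, which widens when labelled RNA is short, was 2.71 for experimenter 2 and 2.15 for experimenter 1. In the same order, that of hexokinase was 1.36 and 1.13, and that of GAPDH 0.26 and 0.30.

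The HIF probe sets spanned most of the range of the arrays, and their order was nearly the same on both. The highest was the brighter *Epas1* probe set and the lowest was that of *Hif3a*, 8.87 apart for experimenter 2 and 9.09 for experimenter 1. Of the 45 pairs of probe sets, 44 stood in the same order on both arrays, and the exception was *Egln3* and *Arnt*. Of the 10 probe sets, 6 averaged no less than the median level over all probe sets and 4 lay below it.

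**Figure D1:**
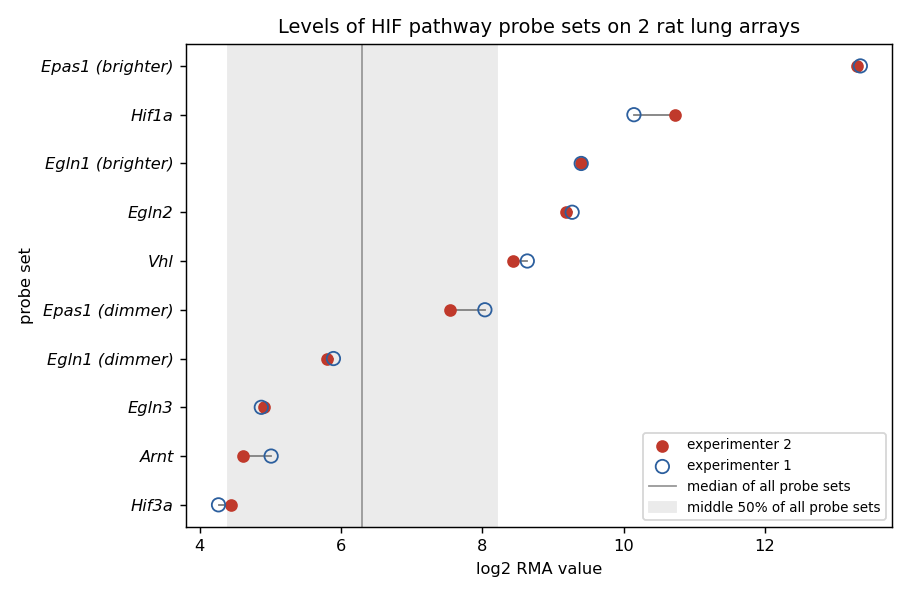
Log2 RMA value (x axis) of each of the 10 HIF pathway probe sets (y axis, ordered by mean), with experimenter 2 as filled and experimenter 1 as open circles, 1 array each. The grey band is the middle 50% of all probe sets, from 4.39 to 8.20, and the line their median of 6.30. The brighter *Epas1* probe set lies far to the right on both arrays, and *Hif1a*, the dimmer *Epas1* probe set and *Arnt* show the widest gaps between arrays.

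Among the alpha subunits, *Epas1* had the highest signal. Its brighter probe set measured 13.31 for experimenter 2 and 13.35 for experimenter 1, at percentiles 99.84 and 99.85 of those arrays. The difference at this probe set was -0.043, and 83.4% of the 3105 probe sets in the highest of 10 level bins were at least as far apart. That bin is wide, with mean levels from 9.58 to 14.50. The second *Epas1* probe set was much dimmer and measured 7.54 for experimenter 2 and 8.04 for experimenter 1, a difference of -0.49, or 1.41-fold lower for experimenter 2. Of the 3104 probe sets in its level bin, 8.47% were at least that far apart. The arrays thus nearly matched at the bright probe set, while the dim one was lower for experimenter 2.

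The gap in level between the *Epas1* probe sets was 5.77 for experimenter 2 and 5.32 for experimenter 1. In the 4525 genes that have more than 1 probe set, 96.9% had a smaller gap in mean level between the brightest and the second; the median gap was 1.4999. Between these probe sets the differences lay 0.45 apart, and 21.8% of those genes had differences farther apart, with a median distance of 0.25. The annotation ties the dim probe set to the curated *Epas1* transcript and the bright one to an expressed sequence tag. Which part of the transcript each covers was not analysed here.

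Markers of endothelium, a main site of *Epas1*, were lower for experimenter 2 in 8 of 11 measured members, with a median difference of -0.17. Over all genes, 58.7% were lower, with a median of -0.049. The other marker lists leaned lower too, so this was not particular to endothelium. Lower were 8 of 12 epithelial (median -0.070) and 8 of 10 mesenchymal markers (-0.073). So were 6 of 7 leukocyte (-0.13) and 7 of 8 other-organ markers (-0.37). The mean level of the endothelial markers was 10.78 for experimenter 2 and 10.96 for experimenter 1. Single markers ran from 7.07 to 12.48 and from 7.82 to 12.47 on those arrays. None thus lay near the bottom of the scale. *Calcrl*, the calcitonin receptor-like receptor, had the largest difference of the 11, with 7.07 for experimenter 2 and 7.82 for experimenter 1. *Ramp2*, its co-receptor, had 12.48 and 12.47. The 3 markers higher for experimenter 2 were *Emcn* (0.28), *Kdr* (0.11) and *Ramp2* (0.011). *Kdr* and *Tek* are also among the HIF target genes described below. The part of the endothelial markers and of the wider beta-actin and hexokinase gaps in the *Epas1* values was not tested. In a bulk lung sample, fewer cells of a type and less RNA per cell cannot be told apart.

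*Hif1a*, the broadly expressed alpha subunit, was the HIF pathway gene with the largest difference between arrays. It measured 10.73 for experimenter 2 and 10.15 for experimenter 1, a difference of 0.59 or 1.503-fold higher, at percentiles 96.6 and 93.9 of those arrays. Of the 3105 probe sets in the highest of 10 level bins, 52 (1.67%) were at least as far apart, against an SD of the difference in that bin of 0.23. Mean levels in that bin ran from 9.58 to 14.50, so it is only a coarse match for level. *Hif1a* was the 1 probe set of the 10 past 1.5-fold, just over that threshold (0.585 on the log2 scale). Past 1.5-fold in either direction were 4.35% of all non-control probe sets, and 2.05% were past it upward, and 1 of 10 is too small a count to set against that background. Past 2-fold were 0 of the 10 and 0.37% of all non-control probe sets. *Hif1a* has no further probe set under the rule, so its difference has no second measurement on these arrays.

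The level of *Epas1*, by its brighter probe set, exceeded that of *Hif1a* by 2.57 for experimenter 2 and by 3.21 for experimenter 1. By its dimmer probe set *Epas1* lay below *Hif1a* on both arrays, so the order of these paralogs depends on the probe set.

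*Hif1a* was the 1 of 9 pathway genes with the letters ACGTG, a core form of the HIF binding site, in the 250 bases before a start listed for it, searched on both strands in RefSeq promoter entries of assembly GRCr8. The entry's start lies 2110 bases inside the gene's outermost start in the RefSeq gene table of that assembly, so its window is not upstream of the whole gene. Short runs around the matches are shown for that reason, both on the plus strand, at chr6:98359657-98359686 (match 229 bases before the entry's start) and chr6:98359722-98359750 (164 bases before it), with ACGTG or its reverse complement CACGT in capitals. The 6-letter palindrome CACGTG holds a match on each strand and counts as 2 of the 3 matches.
*Hif1a*, first run: cacacagacgagCACGTGagctgggcagct
*Hif1a*, second run: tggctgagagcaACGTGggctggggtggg
Each of the other 8 genes, *Epas1* and the *Egln* genes included, had no ACGTG in such a window; the entries of *Epas1*, *Hif3a* and *Hif1an* likewise begin inside the gene's outermost start. For comparison, 18.1% of 27457 rat genes had it in at least 1 annotated start. A match is a description of letters and not of a bound site. With GCGTG counted as well, 4 of the 9 genes (*Arnt*, *Egln1*, *Hif1a* and *Hif3a*) had a match, against 39.6% of all genes.

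*Hif3a*, whose products include inhibitory splice forms of the alpha family, had the lowest signal of the pathway. It measured 4.44 for experimenter 2 and 4.27 for experimenter 1, a difference of 0.17, at percentiles 26.03 and 22.7. Its level minus that of *Hif1a* was -6.30 for experimenter 2 and -5.88 for experimenter 1. In its level bin 53.5% of probe sets were at least as far apart.

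The genes nearest to each alpha subunit in level, by distance over the 2 arrays among 14216 other genes, were also listed. For *Epas1* they were *Rps6* and *Rpl7a*, both ribosomal protein genes, at distances of 0.028 and 0.048. *Hif1a* had *Apbb1ip* at 0.11 (10.63 for experimenter 2 and 10.17 for experimenter 1) and *Cyfip1* at 0.12 (10.83 and 10.21). *Hif3a* had *Bcan* and *H2ac1*, at 0.0082 and 0.010. With only 2 arrays, this is closeness in level and nothing more: 6 genes lay within 0.1 of *Epas1*, 0 of *Hif1a* and 36 of *Hif3a*.

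*Arnt*, the shared beta subunit, had a low signal on this design. It measured 4.62 for experimenter 2 and 5.01 for experimenter 1, a difference of -0.39 or 1.31-fold lower, at percentiles 28.4 and 33.0. Of the 3104 probe sets in its level bin, 19.4% were at least as far apart. *Arnt* and *Egln3* changed places between arrays, and their order was not resolved. *Arnt* and *Hif3a* lay 0.18 apart for experimenter 2 and 0.74 for experimenter 1, in the same order on both arrays. The SD of the difference between arrays in their level bins was 0.32 and 0.30, which is not an error of a gap within 1 array.

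*Vhl*, the substrate receptor of the ubiquitin ligase that removes hydroxylated alpha subunits, had 8.44 for experimenter 2 and 8.64 for experimenter 1. The difference was -0.20, at percentiles 78.4 and 80.4 of level, and 40.3% of its level bin was at least as far apart. Of the 6 ligase partners listed, 2 were higher and 4 lower for experimenter 2, with a median difference of -0.067, and none was past 1.5-fold. *Nedd8*, the modifier that activates cullins, measured 11.25 for experimenter 2 and 11.57 for experimenter 1, the largest difference of the partners at -0.32. *Elob* and *Eloc*, the elongins that bind VHL, measured 10.88 and 10.77 for experimenter 2 and 10.97 and 10.90 for experimenter 1. The RING subunit *Rbx1* had 10.51 for experimenter 2 and 10.36 for experimenter 1, and the scaffold *Cul2* 6.41 and 6.25.

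The prolyl hydroxylase genes *Egln1* and *Egln2* had high and nearly matching values on both arrays, and *Egln3* was low. The brighter probe set of *Egln1*, whose product is the main hydroxylase of HIF-1 alpha in normal oxygen, measured 9.399 for experimenter 2 and 9.400 for experimenter 1. Its difference of -0.00033 was the smallest of the 10 probe sets. *Egln2* measured 9.19 for experimenter 2 and 9.27 for experimenter 1, a difference of -0.081. *Egln1* and *Egln2* were neighbours in level, 0.21 apart for experimenter 2 and 0.13 for experimenter 1, in the same order on both arrays. The SD of the difference between arrays in their level bin was 0.25, which is not an error of a gap within 1 array.

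*Egln3*, itself a HIF-induced gene in many cells, measured 4.91 for experimenter 2 and 4.87 for experimenter 1, at percentiles 32.3 and 31.2. The second *Egln1* probe set lay somewhat below the median level, with 5.80 for experimenter 2 and 5.89 for experimenter 1 (percentiles 44.0 and 44.6). It lay 3.60 below the brighter probe set for experimenter 2 and 3.51 for experimenter 1, and 84.6% of genes with several probe sets had a smaller gap in mean level. Between the *Egln1* probe sets the differences lay 0.089 apart, and 81.2% of those genes had differences farther apart.

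Over the 10 probe sets, 3 were higher and 7 lower for experimenter 2, where 58.7% of all probe sets were lower. Their median difference was -0.062, against -0.052 over all probe sets. By the brightest probe set per gene, the 8 measured genes had a median difference of -0.022, against -0.049 over all 14217 genes, and 5 of 8 were lower. Differences under 0.1 in size were found for 5 of the 10 probe sets (both of *Egln1*, the brighter of *Epas1*, and those of *Egln2* and *Egln3*) and for 31.8% of all probe sets.

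**Figure D2:**
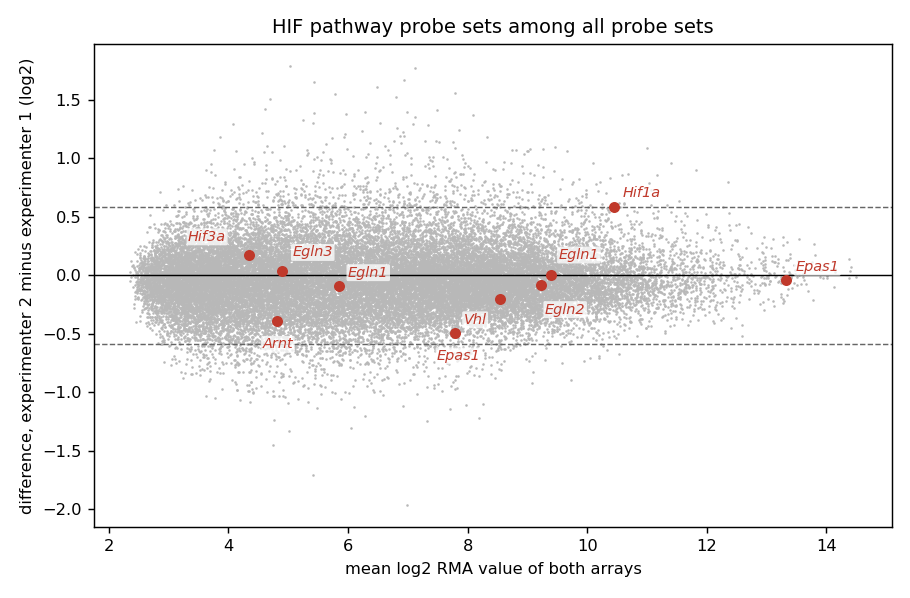
Difference between arrays (y axis, experimenter 2 minus experimenter 1, log2) against mean log2 RMA value of both arrays (x axis). Grey points are all non-control probe sets, red points the 10 HIF pathway probe sets, and dashed lines mark 1.5-fold. *Hif1a*, at 0.59, lies on the upper dashed line, and the other 9 lie within the dashed lines. Of the level bin of *Hif1a*, with means from 9.58 to 14.50, 1.67% were at least as far apart.

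Cofactors and stability factors of HIF all averaged no less than the median level over all probe sets. By the brightest probe set, 9558 of all 14217 genes did so. Of the 15 measured, 7 were higher and 8 lower for experimenter 2, with a median of -0.058, and none was past 1.5-fold. The widest difference was that of *Wsb1*, a SOCS box protein that is itself known as a hypoxia-induced ubiquitin ligase subunit, at 9.73 for experimenter 2 and 9.19 for experimenter 1. The coactivator *Ep300* measured 10.20 for experimenter 2 and 9.89 for experimenter 1. *Sart1*, also called hypoxia-associated factor, measured 9.09 for experimenter 2 and 9.43 for experimenter 1, and *Ing4*, an inhibitor of growth family protein, 8.62 and 8.96. The brightest were *Rack1*, a scaffold protein, with 12.48 for experimenter 2 and 12.54 for experimenter 1, and the chaperone gene *Hsp90ab1* with 12.15 and 12.11.

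Other genes of the bHLH-PAS class, to which the HIF subunits belong, or of related PAS proteins, held the only gene besides *Hif1a* past 1.5-fold in the pathway and partner lists. *Ahr*, the aryl hydrocarbon receptor, which also pairs with ARNT, measured 4.67 for experimenter 2 and 5.54 for experimenter 1, a difference of -0.87. Its other probe set measured 4.14 for experimenter 2 and 3.84 for experimenter 1, a difference of 0.30 in the opposite direction. Of the 17 genes measured, 6 were higher and 11 lower for experimenter 2, with a median of -0.12, and 1 was past 1.5-fold downward, where 1.31% of all genes were. *Ahrr*, the repressor of AHR, measured 3.42 for experimenter 2 and 3.94 for experimenter 1. The coactivator *Ncoa1* was the brightest with 10.07 and 10.06, and the clock genes *Clock* and *Bmal1* measured 9.50 and 6.70 for experimenter 2 against 9.14 and 6.39 for experimenter 1.

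Other dioxygenases that, like the EGLN enzymes, use 2-oxoglutarate and oxygen had 10 of 17 measured genes higher for experimenter 2 and 7 lower, with a median of 0.028. None was past 1.5-fold. *Kdm6b*, a histone demethylase, had the largest negative difference, with 9.21 for experimenter 2 and 9.68 for experimenter 1. *Kdm2a*, another demethylase, was farthest the other way, with 9.32 for experimenter 2 and 8.87 for experimenter 1, followed by *Kdm4c* with 4.42 and 4.02. *Plod3*, a lysyl hydroxylase of collagen, measured 9.60 for experimenter 2 and 9.84 for experimenter 1, and *Alkbh5*, an RNA demethylase, 9.86 and 9.85.

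HIF target genes were taken from 4 lists, and 59 of the 63 listed were measured. Of these, 22 were higher and 37 lower for experimenter 2, which is 62.7% lower against 58.7% of all genes. Their median difference of -0.049 was that of all genes to the same number of digits, and 0 of 59 were past 1.5-fold, where 3.24% of all genes were. The medians of the 4 lists ran from -0.28 (iron, red cells and pH) to -0.041 (vessels and matrix). A link between the *Hif1a* signal and that of the targets was not tested.

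Among the glycolytic targets, 8 of 21 were higher and 13 lower for experimenter 2, with a median of -0.049. The brightest were the aldolase gene *Aldoa*, at 12.09 for experimenter 2 and 12.46 for experimenter 1, and the phosphoglycerate kinase gene *Pgk1*, at 11.46 and 11.64. *Pfkfb4*, a kinase and phosphatase that sets fructose 2,6-bisphosphate, had the widest difference at -0.43, from 7.04 for experimenter 2 and 7.47 for experimenter 1. In the other direction, the phosphofructokinase gene *Pfkl* had 7.21 for experimenter 2 and 6.92 for experimenter 1, and the isomerase gene *Tpi1* 10.06 and 9.81.

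Vessel and matrix targets had 7 of 15 genes higher and 8 lower, with a median of -0.041. All 15 averaged no less than the median level over all probe sets, where 9558 of all 14217 genes did. *Kdr* and *Tek*, receptors for VEGF and angiopoietins on endothelium, were the brightest, with 12.20 and 12.03 for experimenter 2 and 12.09 and 12.13 for experimenter 1. *Cxcl12*, a chemokine, had the widest difference of all 59 targets at 0.55, with 10.10 for experimenter 2 and 9.55 for experimenter 1. The inducible nitric oxide synthase *Nos2* measured 7.19 for experimenter 2 and 6.89 for experimenter 1. *Adm*, the vasodilator adrenomedullin, had 7.15 for experimenter 2 and 7.43 for experimenter 1, and the collagen prolyl hydroxylase *P4ha2* 8.71 and 8.98.

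Among the 4 target lists, the one for iron, red cells and pH had the lowest median, with 6 of 7 genes lower for experimenter 2 and a median of -0.28. *Cp*, the ferroxidase ceruloplasmin, measured 10.34 for experimenter 2 and 10.66 for experimenter 1, and *Slc11a2*, an iron transporter, 7.97 and 8.33. *Hmox1*, haem oxygenase, was the 1 gene not lower, with 8.616 for experimenter 2 and 8.609 for experimenter 1. *Epo*, the red cell hormone, measured 3.18 for experimenter 2 and 3.53 for experimenter 1, near the bottom of both arrays (percentiles 7.23 and 11.5). Of the 7, 4 averaged no less than the median level over all probe sets, where 9558 of all 14217 genes did. The 8 markers of other organs, most of them dim, had a median difference of -0.37 with 7 of 8 lower for experimenter 2, and their part in the iron list's values was not tested.

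The survival and feedback targets had 6 of 16 genes higher and 10 lower, with a median of -0.062. The brightest were *Bnip3l*, a mitophagy receptor, at 11.44 for experimenter 2 and 11.76 for experimenter 1, and *Cited2*, which competes with HIF for its coactivators, at 10.09 and 10.46. *Igfbp3*, an IGF-binding protein, measured 9.29 for experimenter 2 and 9.65 for experimenter 1. *Bnip3*, the relative of *Bnip3l*, differed the other way, with 8.97 for experimenter 2 and 8.75 for experimenter 1, as did *Insig2*, a regulator of sterol synthesis, with 8.17 and 7.96.

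**Figure D3:**
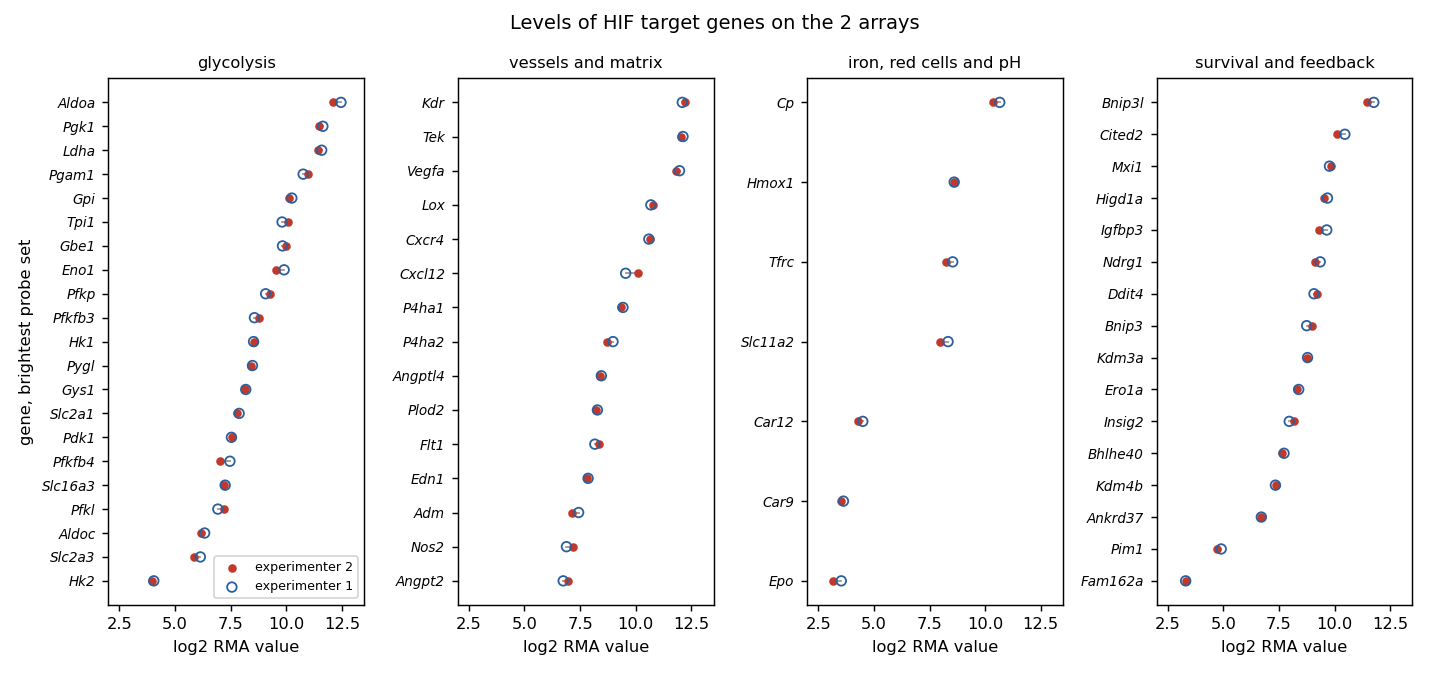
Log2 RMA value (x axis) of each measured HIF target gene by its brightest probe set (y axis, ordered by mean within each of 4 lists), with experimenter 2 as filled and experimenter 1 as open circles, 1 array each. In the panel for iron, red cells and pH, 6 of the 7 filled circles lie left of the open ones, and *Cxcl12* shows the widest gap of any target at 0.55.

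The targets' own start regions were searched for the letters that HIF reads. Of 52 target genes with a RefSeq promoter entry in GRCr8, 25 (48.1%) had ACGTG on either strand in the 250 bases before a start, against 18.1% of all 27457 genes; with GCGTG as well, the shares were 76.9% and 39.6%. These promoters were also richer in G and C, with a median of 63.6% and 18 CG pairs over 59 starts, against 51.2% and 5 CG pairs over all 33469, and the part of base composition in the share was not tested. The genes were listed as HIF targets from general knowledge, so the share describes the list. The 3 with at least 3 matches were *Bhlhe40*, a transcriptional repressor, *Ldha*, lactate dehydrogenase A, and *Ankrd37*, an ankyrin repeat protein. Each CACGTG again counts as 2 matches. The matches stood at 3 separate places in *Bhlhe40* and at 2 each in *Ldha* and *Ankrd37*. *Bhlhe40* and *Ldha* begin at the gene's outermost start, and *Ankrd37* lies 20 bases inside it and is shown by short runs. They follow with the matches in capitals, all on the plus strand, at chr4:143174210-143174350 for *Bhlhe40* (240 to 100 bases before the start), chr1:106507985-106508043 for *Ldha* (107 to 49 bases), and chr16:53001259-53001287 and chr16:53001472-53001501 for *Ankrd37* (matches 236 and 23 bases before the entry's start).
*Bhlhe40*: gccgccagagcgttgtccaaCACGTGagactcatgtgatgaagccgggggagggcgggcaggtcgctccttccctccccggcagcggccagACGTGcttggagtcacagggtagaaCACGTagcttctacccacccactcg
*Ldha*: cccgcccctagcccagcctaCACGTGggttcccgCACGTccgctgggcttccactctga
*Ankrd37*, first run: ccacccagcggtACGTGcctagttctgct
*Ankrd37*, second run: ggttccgggctaCACGTGtcactgtttggg
The arrays gave *Bhlhe40* 7.63 for experimenter 2 and 7.73 for experimenter 1, *Ldha* 11.44 and 11.59, and *Ankrd37* 6.707 and 6.708. The *Ankrd37* values are all but equal.

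**Figure D4:**
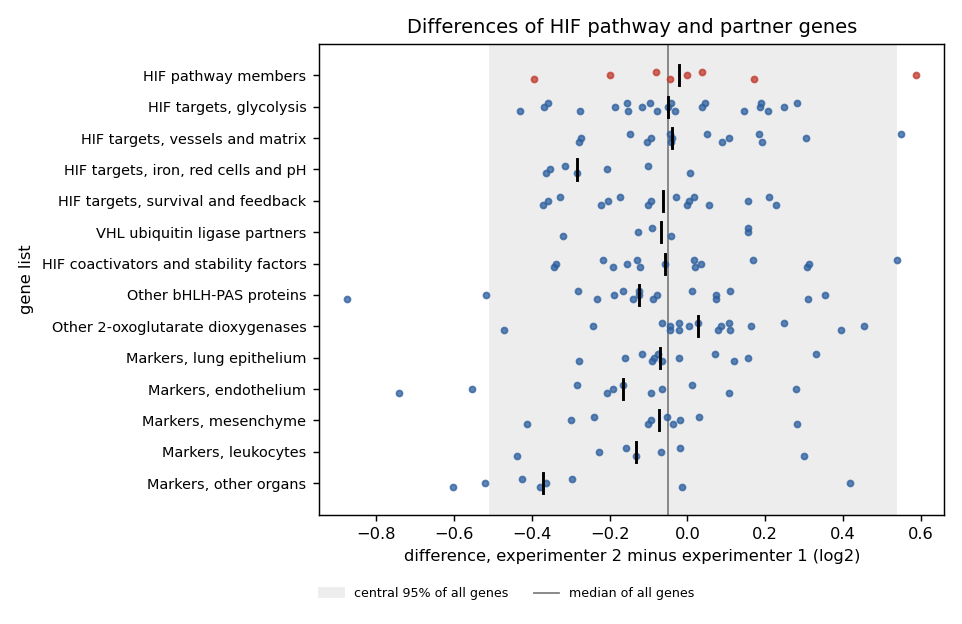
Difference between arrays (x axis, experimenter 2 minus experimenter 1, log2) of every measured gene of each list (y axis) by its brightest probe set; black ticks are list medians, the grey band is the central 95% of all genes (-0.51 to 0.54) and the line their median of -0.049. *Hif1a* at 0.59 is the 1 pathway gene outside the band, *Ahr* at -0.87 lies farthest out of all points, and the list medians of the pathway (-0.022) and of the glycolytic, vessel and survival targets (-0.049, -0.041 and -0.062) lie near that of all genes.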

How the data were processed

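The deposited table holds 1 log2 value per probe set and array, which the authors computed with RMA, per the submitters' processing notes. Its log base is not stated, and 2 was assumed because both columns lie within the range that log2 intensities have. For RMA, neither the version nor the group of arrays processed jointly is known here. The 57 control probe sets among 31099 were set aside. Of the remaining 31042, the platform annotation gave 1 symbol for 20826. Entrez identifiers matched the GRCr8 gene table for 20758 of these, and this changed 0 symbols.

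The members and lists were chosen with earlier results of these data known. For lists, each gene was taken by its brightest probe set, the one highest in mean over both arrays, with no filter on level. Probe sets were put in 10 bins of mean level, and the share of a bin at least as far apart as a member was counted. A fold of 1.5 served as the rule of size, since 1 array per experimenter allows no test; the number of arrays limits the precision. Named were all members, of each list other than the marker lists the 2 brightest genes and the 2 with the largest difference each way, and the 2 genes nearest each alpha subunit; the others named were chosen after their values were seen. Alternatives were median centring, loess (fraction 0.3), quantile normalization, the mean over probe sets, the second brightest probe set, list means, a level filter and 2-fold. Computations used Python 3.11.15, numpy 2.4.6, pandas 2.3.3, statsmodels 0.14.6 and matplotlib 3.10.9, and the functions were tested on simulated data.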

Additional observations from a re-analysis of the deposited data

How the results depend on the processing

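No paired analysis was possible because there is only 1 array on each side, and leaving out either would end the comparison. The median difference of the HIF pathway genes, -0.022 as reported, was 0.030 after median centring, 0.010 after loess, 0.0035 after quantile normalization and 0.0097 as a mean; that of HIF targets, -0.049 as reported, was 0.0025 after centring and 0.0060 after loess. Centring removes the median difference over all probe sets by construction. That median was 0.00038 after loess and -0.0078 after quantile normalization. The cause of the turns other than those after centring was not tested. The other bHLH-PAS genes turned to 0.012 at or above the median level (-0.12 as reported), and the other dioxygenases to -0.044 with the mean over probe sets and -0.045 with the second brightest (0.028 as reported); the cause was not tested. *Epas1* was 0.0083 after centring, -0.27 with the mean over probe sets and -0.49 by its second probe set; *Egln1* was 0.051 after centring, 0.050 after loess and 0.045 after quantile normalization. *Hif1a* ranged over 0.59 to 0.64 and stayed past 1.5-fold in each scaling. Centring could only raise its value, because the median removed was -0.052. The mean over probe sets and the second probe set could not move it, since it has 1 probe set. At 2-fold, 0 of 10 probe sets passed, where 0.37% of all probe sets did. The percentile of *Epas1* by its second probe set was 66.5 for experimenter 2 and 72.6 for experimenter 1, and that of *Hif3a* among single-symbol probe sets 19.7 and 16.9. Of 117 alternative values, 97 kept their direction and moved little (by up to 0.1 on the log2 scale, 5 percentile points, or 1.5 times for a count). At least 26 of these could not move, since the gene has 1 probe set or quantile normalization keeps ranks. The level filter kept all 6 VHL partners and all 15 coactivators and stability factors, so their medians were fixed too. Centring takes the same median of -0.052 from every difference, less than the 0.1 limit, so it could change only the sign. Without detection calls, the values of *Hif3a*, *Arnt* and *Egln3* have no known distance from background.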
